A study of Arabidopsis thaliana with 15 samples.

Results

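The KMD (KISS ME DEADLY) genes and KFB-CHS of Arabidopsis encode kelch-repeat F-box proteins, and the 5 of them, KMD1, KMD2, KMD3, KMD4 and KFB-CHS, were followed by their locus identifiers among the 32833 genes of the deposited count table. All 5 had a row in the table. KMD1, KMD2, KMD4 and KFB-CHS passed the filter on low counts. KMD3 had 0 counts in every library and KMD4 had 1 to 19. Both lie inside exons of other genes, as measured below, so levels are read here for 3 members only. The values that the family was chosen by are not stated. Earlier results of these libraries were known, and they showed KMD1 in a double mutant. Values of the members that set a double mutant beside WT or a single mutant are therefore treated as those that chose the family, and are given as a description without a test.

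RNA came from untreated whole seedlings, 1 week old, raised on a medium that held 1% sucrose. Of the genotypes, gyf1 gyf2-2 and gyf1 gyf2-1 were double mutants, gyf2 and gyf1 single mutants, and Col-0 the wild type (WT). Each was sequenced in 3 libraries, so n = 3 for every genotype below. The labels give neither the mutated loci and alleles nor which gyf2 allele the single mutant carries, and they do not say whether gyf2-1 and gyf2-2 stand for alleles or for lines. The design text speaks of duplicates, while all 15 libraries were used. It is not stated whether each library had its own culture. The p-values then reflect the spread among these libraries alone, which may be technical.

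F-box proteins are the substrate receptors of SCF ubiquitin ligases. The F-box binds the ASK subunit of the ligase, the kelch repeats hold the target protein, and the target is then marked for breakdown by the proteasome. KMD1 to KMD4 are known to bind type-B ARR proteins, the transcription factors that turn on cytokinin-response genes. Under the names KFB20, KFB01, KFB39 and KFB50 the same proteins are known to bind phenylalanine ammonia-lyases, which open the phenylpropanoid pathway. KFB-CHS is known to bind chalcone synthase, the entry enzyme of flavonoid synthesis. These actions are on proteins, and the libraries measure RNA only.

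Libraries held 16567801 to 24681140 counts. On the second principal component of all tested genes, 4 libraries lay apart from the other libraries of their genotype: gyf1 gyf2-2 replicate 2, gyf1 gyf2-1 replicate 1, gyf2 replicate 3 and WT replicate 1. The values of gyf1 gyf2-2 replicate 2 and gyf2 replicate 3 are named below where they are the extreme of their group. Leaf markers were detected in every genotype (RBCS1A, CAB1, LHCB2.1 and PSBO1, 4 of 4 genes above 0), and so were root markers (PRP3, EXPA7, COBL9 and PIP2;4, 4 of 4 genes).

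KMD1 (AT1G80440) lies on chromosome 1 from 30241452 to 30243176 on the forward strand, KMD2 (AT1G15670) on chromosome 1 from 5389952 to 5391672 on the forward strand, and KFB-CHS (AT1G23390) on chromosome 1 from 8308965 to 8310916 on the reverse strand (TAIR10 coordinates of the deposited table). Each is a single exon that shares no base with an exon of another gene. The longest stretch of identical bases was 17 between KMD1 and KMD2, and at most 26 between any pair of the 5 members, so reads of one member were not near-identical to those of another. The 250 bases before each annotated start are shown because these 3 genes moved together in the mutants. They are written 5′ to 3′ on the strand of the gene, from the RefSeq TAIR10.1 genome, at chr1:30241202-30241451 for KMD1, chr1:5389702-5389951 for KMD2 and chr1:8310917-8311166 for KFB-CHS. Capitals mark a match to a searched motif.
KMD1: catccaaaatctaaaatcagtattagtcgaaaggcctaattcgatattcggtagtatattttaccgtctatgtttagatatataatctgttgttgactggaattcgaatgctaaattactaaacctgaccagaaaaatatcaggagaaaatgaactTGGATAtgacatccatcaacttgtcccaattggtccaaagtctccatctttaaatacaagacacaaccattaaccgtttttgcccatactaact
KMD2: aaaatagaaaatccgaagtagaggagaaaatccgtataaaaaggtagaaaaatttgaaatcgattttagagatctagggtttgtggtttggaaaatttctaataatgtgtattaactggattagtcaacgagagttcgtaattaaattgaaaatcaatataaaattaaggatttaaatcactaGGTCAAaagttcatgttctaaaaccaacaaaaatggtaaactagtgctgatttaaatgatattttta
KFB-CHS: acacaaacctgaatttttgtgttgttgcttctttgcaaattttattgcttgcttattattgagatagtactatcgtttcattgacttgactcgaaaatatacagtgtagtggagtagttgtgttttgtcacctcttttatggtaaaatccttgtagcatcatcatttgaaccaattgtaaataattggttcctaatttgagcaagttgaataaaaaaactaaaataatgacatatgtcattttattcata

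The motifs searched on both strands were the G-box (CACGTG), the C-box (GACGTC) and the ACGT core that both of these contain. The TATCCA element (TATCCA) and 1 form of the W-box (TTGACC) were searched as well. KMD1 held 1 TATCCA element, on the opposite strand at position -94 from the start, and 13.64% of the 27443 windows of this length in the genome held one. KMD2 held 1 W-box, on the opposite strand at position -67, and 12.18% of windows held one. KFB-CHS held none of the 5 motifs in the forms searched. Thus no searched motif was shared between the 3 windows, and none of them held the ACGT core, which 44.08% of all windows held. The other W-box form, TTGACT, was not searched, and its letters stand in all 3 windows on 1 strand or the other. Its share over all windows was not counted. A match of letters is not a binding site, and the absence of a match says only that these letters are not in the window.

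KMD1 was the member with the largest differences. Its level was 127.5, 102.7 and 126.0 CPM (counts relative to the TMM-scaled library size) in gyf1 gyf2-2, 130.0, 141.2 and 135.3 CPM in gyf1 gyf2-1, 81.8, 72.4 and 76.3 CPM in gyf2, 50.7, 41.3 and 50.5 CPM in gyf1, and 25.4, 23.2 and 25.3 CPM in WT. No library of one step overlapped with the next in the order gyf1 gyf2-1, gyf1 gyf2-2, gyf2, gyf1 and WT. The lowest gyf1 gyf2-2 value belonged to replicate 2, one of the libraries that lay apart. As log2 fold changes against WT, KMD1 stood at 2.27 (SE 0.09) in gyf1 gyf2-2 and 2.46 (SE 0.09) in gyf1 gyf2-1, which are 4.82 and 5.50 times the WT level. Without gyf1 gyf2-2 replicate 2 the value of that line was 2.37, and without gyf1 gyf2-1 replicate 1 that of the other was 2.49.

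In the single mutants KMD1 rose by a log2 fold change of 1.64 in gyf2 (SE 0.09, adjusted p = 3.28e-13) and of 0.95 in gyf1 (SE 0.09, adjusted p = 5.68e-08), both by edgeR's quasi-likelihood test with Benjamini-Hochberg adjustment over the 20721 genes tested. All 3 libraries of either mutant lay above all WT libraries. Without WT replicate 1 the values were 1.67 in gyf2 and 0.97 in gyf1. Across the 11 other settings tried, the adjusted p of gyf2 was at most 2.04e-09 and that of gyf1 at most 4.98e-06. These tests share their WT libraries with the double-mutant values.

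KMD2, which acts on the same proteins as KMD1, showed the same order with smaller differences. It had 59.1, 49.7 and 58.8 CPM in gyf1 gyf2-2, 53.3, 63.6 and 58.9 CPM in gyf1 gyf2-1, 43.0, 43.2 and 37.7 CPM in gyf2, 31.8, 36.1 and 38.4 CPM in gyf1, and 28.5, 26.7 and 28.7 CPM in WT. The lines gyf1 gyf2-2 and gyf1 gyf2-1 overlapped, and so did gyf2 and gyf1, while both double mutants lay above both single mutants and all mutants above WT. The lowest gyf1 gyf2-2 and gyf2 values belonged to libraries that lay apart, replicate 2 and replicate 3. Against WT the log2 fold change was 1.00 (SE 0.09) in gyf1 gyf2-2 and 1.07 (SE 0.09) in gyf1 gyf2-1. KMD2 rose in gyf2 (0.56, SE 0.09, edgeR adjusted p = 0.000102). In gyf1 the value was 0.34 (SE 0.09, 95% confidence interval 0.16 to 0.52) with an edgeR adjusted p = 0.100, past the threshold of 0.05. That call was gained without the filter on low counts (adjusted p = 0.0341) and without gyf1 replicate 1 (0.41, adjusted p = 0.0469).

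KFB-CHS was the most abundant of the 3 readable members. It had 207.5, 167.0 and 207.4 CPM in gyf1 gyf2-2, 224.2, 228.1 and 208.4 CPM in gyf1 gyf2-1, 157.5, 158.1 and 123.6 CPM in gyf2, 102.7, 92.0 and 94.7 CPM in gyf1, and 75.2, 65.8 and 69.5 CPM in WT. As for KMD1, no neighbours in the order gyf1 gyf2-1, gyf1 gyf2-2, gyf2, gyf1 and WT overlapped. The lowest gyf1 gyf2-2 and gyf2 values again belonged to the libraries that lay apart, replicate 2 and replicate 3. Against WT the log2 fold change was 1.47 (SE 0.09) in gyf1 gyf2-2 and 1.65 (SE 0.09) in gyf1 gyf2-1. KFB-CHS rose in gyf2 by 1.06 (SE 0.09, edgeR adjusted p = 1.73e-08) and in gyf1 by 0.46 (SE 0.09, edgeR adjusted p = 0.0140). The gyf1 call was lost without WT replicate 2 (0.42, adjusted p = 0.0982), without WT replicate 3 (0.45, adjusted p = 0.0757) and without gyf1 replicate 1 (0.41, adjusted p = 0.0911), always in the same direction. Without gyf2 replicate 3 KFB-CHS stood at 1.17 in gyf2, without gyf1 gyf2-2 replicate 2 at 1.57 in that line, and without WT replicate 1 at 0.51 in gyf1.

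**Figure D1:**
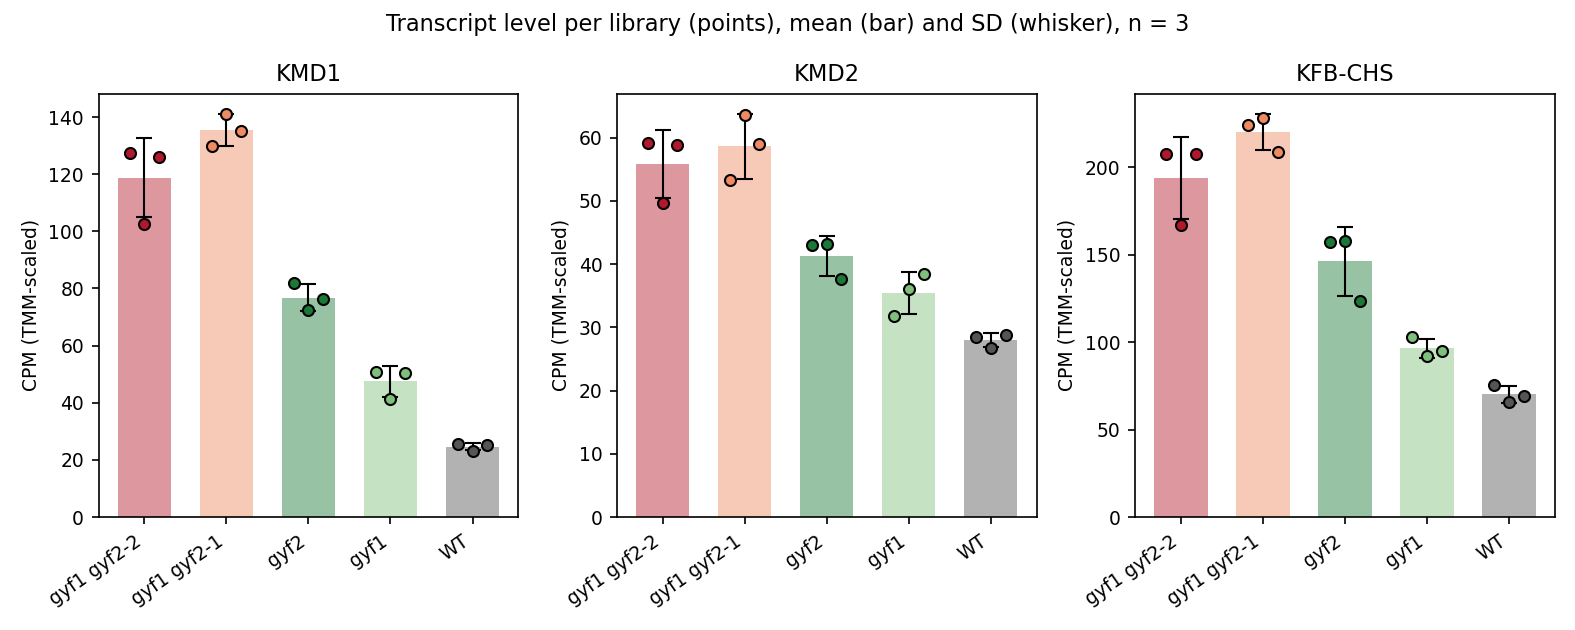
Level of KMD1, KMD2 and KFB-CHS in CPM (vertical axis, from 0) in each genotype (horizontal axis). Points are libraries, bars are means and whiskers SD (n = 3). Means fall in the order gyf1 gyf2-1, gyf1 gyf2-2, gyf2, gyf1 and WT for each gene.

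Per length, KFB-CHS also had the highest level of the 3 readable members in every genotype. Its FPKM (the deposited value, scaled to gene length and depth) averaged 98.9 in gyf1 gyf2-2, 112.5 in gyf1 gyf2-1, 74.8 in gyf2, 49.3 in gyf1 and 35.8 in WT. KMD1 averaged 68.5, 78.3, 44.4, 27.5 and 14.2 FPKM in the same genotypes, and KMD2 averaged 32.3, 34.0, 23.9, 20.5 and 16.2 FPKM. Thus mean KMD1 was below mean KMD2 in WT alone and above it in each mutant. In WT the KMD1 libraries ran from 13.4 to 14.7 FPKM and the KMD2 libraries from 15.4 to 16.6 FPKM, without overlap. Summed over the members, the level ran from 173.4 to 214.1 FPKM in gyf1 gyf2-2, from 219.6 to 235.6 in gyf1 gyf2-1, from 129.8 to 152.4 in gyf2, from 91.8 to 100.5 in gyf1 and from 62.5 to 69.5 in WT.

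In gyf2 all 3 readable members rose, where 1.99% of all tested genes were called higher. In gyf1, 2 of the 3 rose, where 0.405% of all tested genes were called higher, and this count was 1 without WT replicate 2 or WT replicate 3. KMD4 passed the filter but is not counted here. For the 3 readable members all libraries of each mutant lay above all WT libraries, as did 19.9% of tested genes in gyf1 gyf2-2, 19% in gyf1 gyf2-1, 9.07% in gyf2 and 7.43% in gyf1. Nothing is read from this order in the double mutants.

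**Figure D2:**
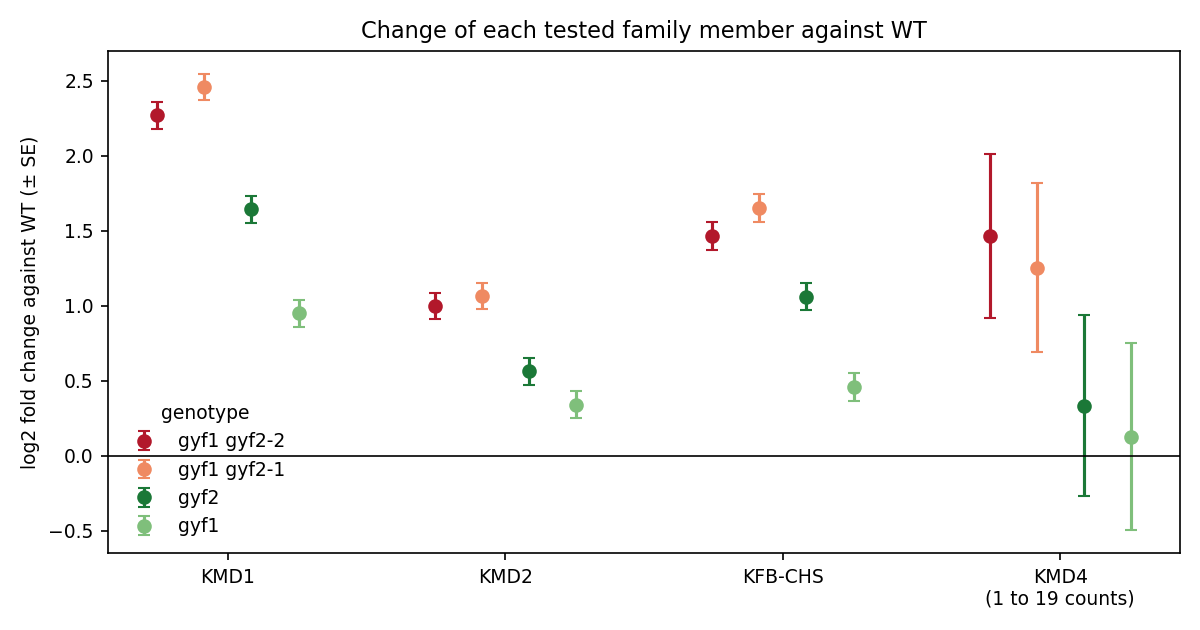
Log2 fold change against WT (vertical axis, ± SE) of the 4 tested members (horizontal axis), with a colour for each mutant. KMD1 has the largest values, from 0.95 in gyf1 to 2.46 in gyf1 gyf2-1. The wide whiskers of KMD4 go with its 1 to 19 counts per library.

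The single mutants were compared with each other directly, without WT. KMD1 was higher in gyf2 than in gyf1 by a log2 fold change of 0.69 (SE 0.08, edgeR adjusted p = 5.21e-06), and KFB-CHS by 0.60 (SE 0.09, edgeR adjusted p = 0.000277). The libraries of the 2 genotypes did not overlap for either gene. KMD2 differed by 0.22 (SE 0.09, 95% confidence interval 0.04 to 0.40, edgeR adjusted p = 0.517), and its libraries overlapped. These 2 of the 3 readable members were called higher in gyf2, where 0.845% of all tested genes were. Libraries of gyf2 lay wholly above those of gyf1 in 6.67% of all tested genes.

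The 2 double mutant lines were compared in the same way. KMD1 differed by -0.19 in gyf1 gyf2-2 relative to gyf1 gyf2-1 (SE 0.08, 95% confidence interval -0.36 to -0.02, edgeR adjusted p = 0.604). KFB-CHS differed by -0.18 (SE 0.09, interval -0.37 to 0.00, edgeR adjusted p = 0.670) and KMD2 by -0.07 (SE 0.08, interval -0.24 to 0.10, edgeR adjusted p = 0.915). For KMD1 and KFB-CHS all gyf1 gyf2-2 libraries lay below all gyf1 gyf2-1 libraries, as 5.91% of all tested genes did. Without gyf1 gyf2-2 replicate 2 the difference of KMD1 was -0.10 and that of KFB-CHS -0.09. By edgeR 0 of the 3 readable members were called (1, KMD1, at unadjusted p below 0.05, and 0 by DESeq2), where 0.232% of all genes were called in either direction. That share is of adjusted calls, and the share of all genes at the unadjusted threshold was not counted. If the values of 1 line chose KMD1, its difference between the lines is not free of that choice.

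Relative to the single mutants, the mean of both double mutant lines was higher for each readable member, with the libraries of both lines wholly above those of gyf2 in 11.7% of all tested genes and above those of gyf1 in 13.4%. On the log2 scale KMD1 stood 0.72 (SE 0.07) above gyf2 and 1.42 (SE 0.08) above gyf1, KMD2 0.47 (SE 0.08) above gyf2 and 0.69 (SE 0.08) above gyf1, and KFB-CHS 0.50 (SE 0.08) above gyf2 and 1.10 (SE 0.08) above gyf1. The change of the double mutants was also set beside the sum of the changes of the single mutants. For KMD1 it was 2.36, against a sum of 2.59, a difference of -0.23 (SE 0.11). For KMD2 it was 1.03, against 0.90 (difference 0.13, SE 0.12), and for KFB-CHS 1.56, against 1.52 (difference 0.04, SE 0.12). The difference of KFB-CHS was smaller than its SE and took either sign when single libraries were left out.

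KMD3 (AT2G44130) and KMD4 (AT3G59940) could not be read in the same way, because of where they lie. KMD3 is a single exon on chromosome 2 from 18253610 to 18255054, forward strand. All 1445 of its bases fall inside exons of AT2G44140, a peptidase family C54 gene on the reverse strand, which had 9657 counts over the 15 libraries while KMD3 had 0. KMD4 lies on chromosome 3 from 22142856 to 22144439, forward strand. Its exonic bases in the reference annotation, 1540 in number, are all inside exons of AT3G09275, an antisense RNA with 0 counts, or of AT3G59950, another C54 peptidase gene, with 9935 counts, both on the reverse strand.

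The same held across the genome. Of the 338 protein-coding genes wholly inside exons of genes on the other strand, 325 (96.15%) had 0 counts in all libraries, compared with 2607 of 19801 genes without overlap (13.17%). The library protocol is labelled as strand-specific, but the sources used here do not give the strand setting of the counting step. A count of 0 for KMD3 is therefore not read as absence of its RNA.

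**Figure D3:**
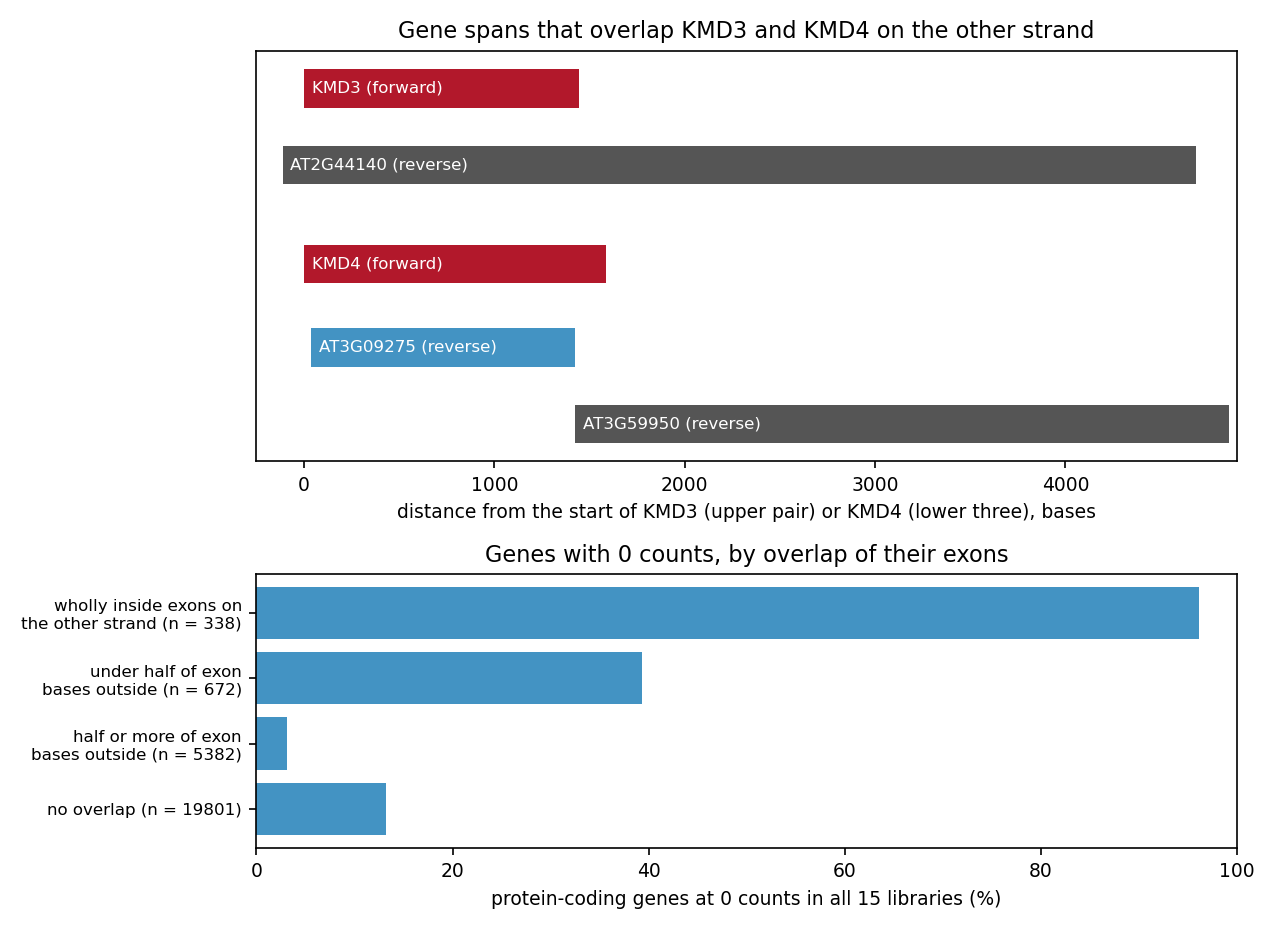
Upper panel: spans of KMD3, KMD4 and the genes that overlap them on the reverse strand, by distance in bases from the start of KMD3 or KMD4. Lower panel: share of protein-coding genes at 0 counts in all 15 libraries (horizontal axis, percent), by how much of their exons lies outside exons of other-strand genes, at 96.15% for genes wholly inside and 13.17% for genes with no overlap.

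KMD4 had 11, 19 and 14 counts in the gyf1 gyf2-2 libraries, 8, 11 and 15 in gyf1 gyf2-1, 11, 7 and 4 in gyf2, 8, 6 and 4 in gyf1, and 1, 6 and 9 in WT. Summed by genotype these were 44 (exact Poisson 95% interval 32.0 to 59.1, counting error only), 34 (23.5 to 47.5), 22 (13.8 to 33.3), 18 (10.7 to 28.4) and 16 (9.15 to 25.98) counts. Both double mutants had the higher sums. They were also the only genotypes with libraries above the minimum of the filter, 3 in gyf1 gyf2-2 and 2 in gyf1 gyf2-1, so KMD4 passed only through the groups where it was high. Its fitted differences are given no test.

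Across the 15 libraries the readable members followed each other closely, with a Pearson r of log2 CPM of 0.984 between KMD1 and KFB-CHS, 0.965 between KMD1 and KMD2 and 0.967 between KMD2 and KFB-CHS. Libraries of 5 genotypes make up these points, so the values describe mainly the order of the genotypes. The double mutant libraries, whose member values are treated as those that chose the family, are among them. The correlations are therefore a description and were not tested. Among the 17746 genes whose log2 CPM averaged 1 or more, the gene most like KMD1 was AT5G19120, an aspartyl protease family gene (r = 0.994). It was followed by MYB73, a transcription factor (0.987), AT2G20670, a gene with a domain of unknown function (0.986), KFB-CHS itself (0.984), and TPS11, of the trehalose phosphatase/synthase family (0.983). KMD2 was most like CRY2, the blue-light receptor cryptochrome 2 (0.982), and AT1G78830, a lectin family gene (0.979). KFB-CHS was most like AT3G49790, a carbohydrate-binding protein gene (0.987), and AT5G19120 (0.986).

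Transcripts of the proteins that KMD1 and KMD2 act on were read next, with 15.1% of all tested genes called higher in gyf1 gyf2-2 and 14.2% in gyf1 gyf2-1 as background. Of 6 tested type-B ARR genes, ARR1 rose in both double mutants, with 67.1 ± 4.26 CPM in gyf1 gyf2-2, 66.1 ± 4.41 CPM in gyf1 gyf2-1 and 52.6 ± 1.49 CPM in WT (mean ± SD). Its log2 fold change was 0.35 (SE 0.07, edgeR adjusted p = 0.000233) in gyf1 gyf2-2 and 0.33 (SE 0.07, edgeR adjusted p = 0.000641) in gyf1 gyf2-1. ARR12, another KMD target protein, rose in gyf1 gyf2-2 (0.25, SE 0.08, edgeR adjusted p = 0.0241) and stood at 0.19 (SE 0.08, edgeR adjusted p = 0.105) in gyf1 gyf2-1. The ARR12 call was lost without WT replicate 1, WT replicate 2, gyf1 gyf2-2 replicate 1 or gyf1 gyf2-2 replicate 3 (0.18 to 0.26), and ARR12 was called in gyf1 gyf2-1 without WT replicate 3 or gyf1 gyf2-1 replicate 1. No other type-B gene was called. The median of the 6 was 0.22 in gyf1 gyf2-2 and 0.17 in gyf1 gyf2-1, where the median of all tested genes was -0.01 in both.

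Type-A ARR genes are activated by type-B proteins, and their products dampen cytokinin signalling. In gyf1 gyf2-2, 6 of 9 fell and in gyf1 gyf2-1, 7 of 9 fell, where 12.6% and 11.7% of all tested genes fell, and 6 fell in both. The median of the 9 was -0.53 in gyf1 gyf2-2 and -0.49 in gyf1 gyf2-1. ARR16 had 5.09 ± 0.718 CPM in gyf1 gyf2-2, 5.31 ± 0.410 CPM in gyf1 gyf2-1, 7.29 ± 0.535 CPM in gyf2, 10.11 ± 2.41 CPM in gyf1 and 12.4 ± 3.29 CPM in WT. Its log2 fold change was -1.28 in gyf1 gyf2-2 (SE 0.18, edgeR adjusted p = 4.48e-06) and -1.22 in gyf1 gyf2-1 (SE 0.18, edgeR adjusted p = 1.36e-05). ARR6 stood at -0.93 and -0.89, ARR7 at -0.81 and -0.93, and ARR4 at -0.45 and -0.46 in the same lines, with gyf1 gyf2-2 given before gyf1 gyf2-1.

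ARR5, a commonly used cytokinin reporter gene, was the only tested type-A gene with values above 0 in both lines, at 0.35 (SE 0.15, edgeR adjusted p = 0.0793) in gyf1 gyf2-2 and 0.02 (SE 0.15, edgeR adjusted p = 0.929) in gyf1 gyf2-1. Leaving out WT replicate 1 put ARR5 past the threshold in gyf1 gyf2-2 (0.58, edgeR adjusted p = 0.00272). It is named although it was singled out after its values were seen. In gyf2, 3 of 9 fell, ARR16 (-0.77), ARR7 (-0.60) and ARR4 (-0.28), where 0.516% of all tested genes were called lower. However, 0 of the type-A genes were called without WT replicate 1 and 1 without gyf2 replicate 2 or gyf2 replicate 3. ARR6 was called in gyf2 without WT replicate 3 (-0.57), where ARR4 was lost (edgeR adjusted p = 0.0511). It was also called without gyf2 replicate 1 (-0.60), where ARR16 (edgeR adjusted p = 0.0670) and ARR4 (edgeR adjusted p = 0.118) were lost. A fit of only these groups lost ARR4 as well (edgeR adjusted p = 0.0508). In gyf1, 0 of 9 were called by edgeR or DESeq2, and 3 had an unadjusted p below 0.05. The share over all genes at that threshold was not counted. ARR7 stood at -0.53 in gyf1 and was called without the filter on low counts (adjusted p = 0.0239) and in a fit of only these groups (adjusted p = 0.0463).

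Upstream in the same pathway, 1 of 9 receptor and phosphotransfer genes was called higher and 1 lower in each line, a share of 11.1% each way. Of all tested genes, 15.1% were called higher and 12.6% lower in gyf1 gyf2-2, and 14.2% higher and 11.7% lower in gyf1 gyf2-1. The lower count was 2 in gyf1 gyf2-1 by DESeq2, with only these groups or without WT replicate 2, and 2 in gyf1 gyf2-2 without its replicate 2. The receptor gene AHK3 rose in gyf1 gyf2-2 by 0.31 (SE 0.08, edgeR adjusted p = 0.00301) and by 0.40 in gyf1 gyf2-1 (SE 0.08, edgeR adjusted p = 0.000243). AHP1, which passes phosphate from receptors to ARR proteins, fell in gyf1 gyf2-2 (-0.54, edgeR adjusted p = 0.000338) as in gyf1 gyf2-1 (-0.57, edgeR adjusted p = 0.000265). Of 6 tested CKX genes, whose products break cytokinin down, CKX4 was called higher (0.47 and 0.50) and CKX7 lower (-0.24 and -0.38). The CKX4 call in gyf1 gyf2-2 was lost without any 1 of the WT libraries, and the CKX7 call in gyf1 gyf2-2 without WT replicate 1 or WT replicate 2. CKX4 was also lost there without gyf1 gyf2-2 replicate 1 or replicate 3, and CKX7 without gyf1 gyf2-2 replicate 1 or replicate 2. In gyf1 gyf2-1, CKX4 was lost without any WT library and without replicate 2 or replicate 3 of the line. In gyf1 gyf2-1 the count higher was 2, with CKX2, and it was 0 or 1 when any library of the comparison was left out. CKX2 had few counts, 10 to 19 per library in gyf1 gyf2-1 and 1 to 11 in WT. Of its exonic bases 61.4% lie outside exons of other genes. CKX6 was counted on 8.52% of its exonic bases, the rest being shared with another gene.

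**Figure D4:**
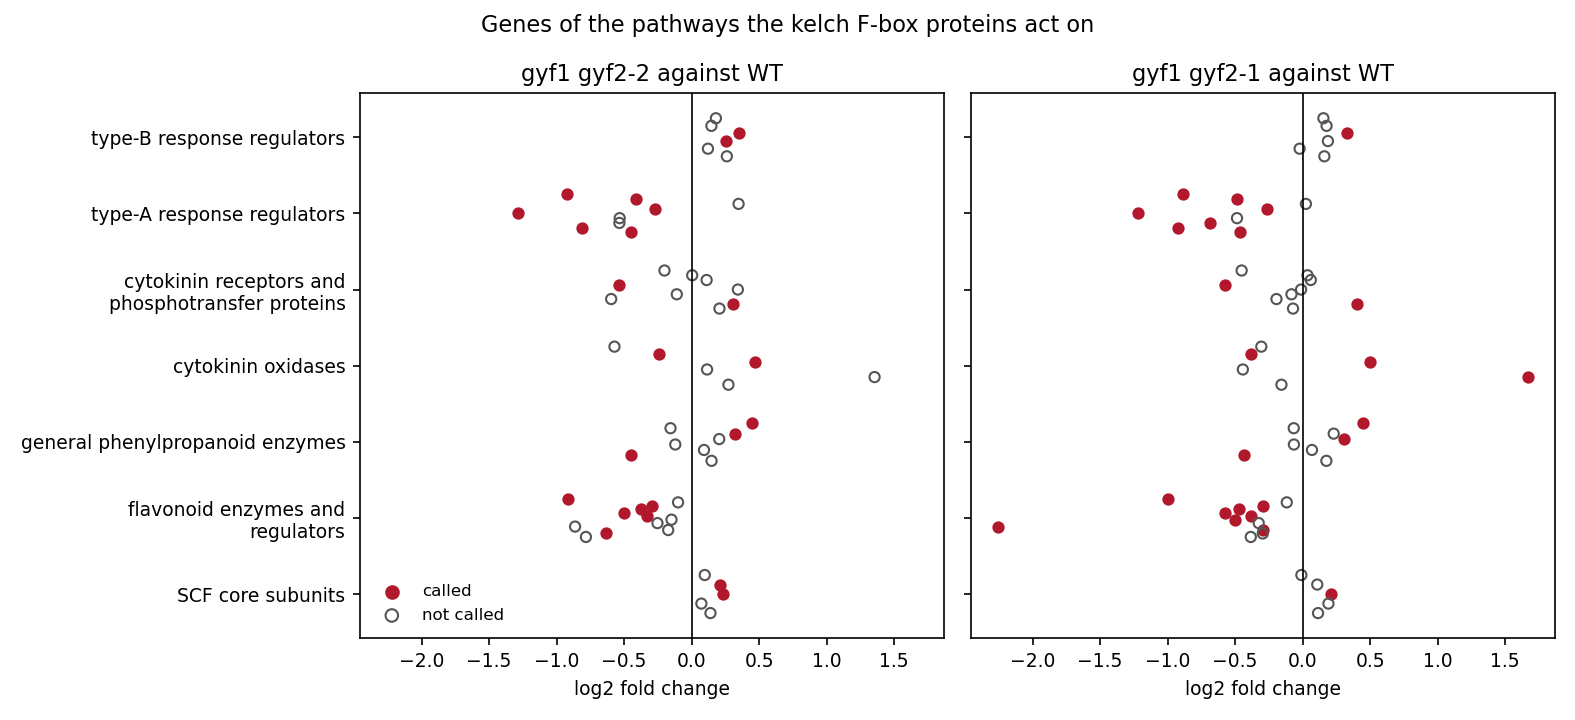
Log2 fold change (horizontal axis) of each tested gene of 7 lists, in gyf1 gyf2-2 and gyf1 gyf2-1 against WT. Filled points were called at adjusted p below 0.05, open points were not. Called type-A and flavonoid genes all lie below 0, while ARR1 lies above 0 in both lines.

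Of 8 phenylpropanoid genes, 2 (25%) were called higher and 1 (12.5%) lower in each double mutant, where 15.1% and 14.2% of all tested genes were called higher and 12.6% and 11.7% lower in gyf1 gyf2-2 and gyf1 gyf2-1. Without WT replicate 1 the higher count was 1 in both lines and the lower count 3 in gyf1 gyf2-2. In gyf1 gyf2-1 the higher count was also 1 without the filter, with only these groups, and without WT replicate 2 or its own replicate 2 or replicate 3. The transcripts of the KMD targets PAL1 and PAL2 were not called. PAL1 had 386.3 ± 22.6 CPM in gyf1 gyf2-2, 401.5 ± 18.8 CPM in gyf1 gyf2-1 and 420.0 ± 36.8 CPM in WT (-0.12, edgeR adjusted p = 0.214 in gyf1 gyf2-2 and -0.06, adjusted p = 0.536 in gyf1 gyf2-1). For PAL2 the values were -0.16 in gyf1 gyf2-2 (SE 0.08, edgeR adjusted p = 0.152) and -0.07 in gyf1 gyf2-1 (SE 0.08, edgeR adjusted p = 0.586). On leaving out WT replicate 1, both were called lower in gyf1 gyf2-2 (PAL1 -0.19, adjusted p = 0.0486, PAL2 -0.26, adjusted p = 0.00827). PAL3 rose in both lines (0.45 and 0.44, SE 0.08 each), and PAL4 was called in gyf1 gyf2-1 alone (0.30, edgeR adjusted p = 0.0452), a call lost without WT replicate 1, WT replicate 2, gyf1 gyf2-1 replicate 2 or gyf1 gyf2-1 replicate 3, and with DESeq2, no filter or a fit of only these groups. The 4CL3 gene of the flavonoid branch fell in both lines (-0.45 and -0.44, SE 0.08 each).

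Of 12 tested flavonoid genes, 6 fell in gyf1 gyf2-2 and 8 in gyf1 gyf2-1, where 12.6% and 11.7% of all tested genes fell. Of these, 5 fell in both lines, and 0 genes rose in either by edgeR. The median of the 12 was -0.36 in gyf1 gyf2-2 and -0.38 in gyf1 gyf2-1. CHS, whose protein is the target of KFB-CHS, had 430.7 ± 19.6 CPM in gyf1 gyf2-2, 430.4 ± 11.3 CPM in gyf1 gyf2-1, 474.5 ± 34.2 CPM in gyf2, 492.9 ± 25.7 CPM in gyf1 and 526.5 ± 22.3 CPM in WT. Its log2 fold change was -0.29 in either double mutant (SE 0.06 each, edgeR adjusted p = 0.000969 in gyf1 gyf2-2 and 0.00116 in gyf1 gyf2-1). MYB111, a transcription factor that activates flavonol genes, showed -0.92 (SE 0.16) in gyf1 gyf2-2 and -1.001 (SE 0.17) in gyf1 gyf2-1. The flavonol synthase gene FLS1 showed -0.38 and -0.47 (SE 0.07 each), and the flavonoid 3′-hydroxylase gene -0.50 (SE 0.10) and -0.57 (SE 0.11).

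CHIL, which encodes a chalcone isomerase-like protein, was the other gene that fell in both lines (-0.33 and -0.38, SE 0.07 each). In gyf2 no flavonoid gene was called by edgeR or DESeq2, where 0.516% of all tested genes were called lower by edgeR. At unadjusted p below 0.05, 7 of 12 were lower in gyf2. In gyf1 the numbers were 0 and 0. The share over all genes at the unadjusted threshold was not counted, so nothing is read from the 7. F3H was left out by the filter, with 6 counts in all and 6.17% of its exonic bases outside another gene.

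Other parts of the ligase and other kelch genes were looked at for comparison. Of 5 tested SCF core genes, CUL1, the cullin scaffold, rose in gyf1 gyf2-2 by 0.23 (SE 0.06, edgeR adjusted p = 0.00434) and by 0.21 in gyf1 gyf2-1 (SE 0.06, edgeR adjusted p = 0.0112). The CUL1 call in gyf1 gyf2-1 was lost without replicate 2 or replicate 3 of that line. In gyf1 gyf2-2 the count was 2, with RBX1A, and it was 1 without WT replicate 3, gyf1 gyf2-2 replicate 2 or gyf1 gyf2-2 replicate 3, and 3 by DESeq2. In gyf1 gyf2-1 it was 1, and 2 without its replicate 1. These are 40% and 20% of the tested genes, where 15.1% and 14.2% of all genes were called higher. The light-sensing kelch F-box genes ZTL, FKF1 and LKP2 were not called in either double mutant by edgeR or DESeq2 (0 of 3, with 1 higher at unadjusted p below 0.05 in each), but 1 of 3 was called higher in gyf1 gyf2-1 without its replicate 1. How many of all genes passed the unadjusted threshold was not counted.

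A rule on words took 210 further genes, of which 73 were tested. It read the deposited descriptions, database matches included, and the RefSeq product names. It asked for both kelch and F-box, or for galactose oxidase/kelch repeat. ZTL, LKP2 and the antisense gene AT3G09275 are among the 210. In gyf1 gyf2-2, 10 rose and 4 fell, and in gyf1 gyf2-1, 9 rose and 5 fell, with 7 higher and 2 lower in both. The shares higher were 13.7% and 12.3%, where 15.1% and 14.2% of all tested genes were, and the shares lower 5.48% and 6.85%, where 12.6% and 11.7% were. Leaving out 1 library at a time gave 4 to 9 higher in gyf1 gyf2-2 (4 without WT replicate 1 or gyf1 gyf2-2 replicate 3, 6 without gyf1 gyf2-2 replicate 1) and 5 to 8 higher in gyf1 gyf2-1 (5 without WT replicate 1). The lower calls were 2 in gyf1 gyf2-2 without its replicate 1 or replicate 3, and 3 in gyf1 gyf2-1 without its replicate 2. The median of the 73 was -0.02 in gyf1 gyf2-2 and -0.03 in gyf1 gyf2-1, against -0.01 for all tested genes. For the 3 readable members the log2 fold changes ran from 1.00 to 2.46 in these lines, and the largest among the other kelch genes named here was 0.91. The member values are treated as those that chose the family, and the other genes were named by their calls. Nothing is therefore read from this contrast.

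The largest rises called in both lines were AT3G23880 (0.84 in gyf1 gyf2-2 and 0.91 in gyf1 gyf2-1), AT5G43190 (0.85 in each) and AT3G27220 (0.85 and 0.73). AT3G27220 is described as a kelch protein without an F-box. AT3G23880 was the only one of the 73 called in a single mutant, at 0.69 (SE 0.14, edgeR adjusted p = 0.00289) in gyf2. AT3G61590, which encodes the F-box protein HAWAIIAN SKIRT, fell (-0.61, SE 0.12 and -0.42, SE 0.11). The other gene that fell in both, AT5G38660 (-0.23 in each, lost in gyf1 gyf2-2 without its replicate 1), came in only through a database match to a kelch protein of another locus and is described as a photosynthesis gene.

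Markers of tissues were read beside these results. Of 4 leaf markers, RBCS1A was called higher in both double mutants (0.22 in gyf1 gyf2-2, lost without its replicate 3 or with only these groups, and 0.24 in gyf1 gyf2-1). The summed leaf-marker level ran from 34082 to 39391 CPM in gyf1 gyf2-2, from 36059 to 39744 in gyf1 gyf2-1, from 29636 to 33743 in gyf2, from 30790 to 32444 in gyf1 and from 32847 to 34337 in WT. Root markers were called in 0 of 4 cases against WT by edgeR (1 in gyf1 gyf2-2 at unadjusted p below 0.05, and 1 by DESeq2). The share of all genes at the unadjusted threshold was not counted. In gyf1 gyf2-2, edgeR called 1 root marker lower with only these groups, without WT replicate 1 and without gyf1 gyf2-2 replicate 1. The root-marker sum ran from 54.3 to 65.4 CPM in gyf1 gyf2-2, from 63.4 to 66.6 in gyf1 gyf2-1, from 58.8 to 80.1 in gyf2, from 64.6 to 77.7 in gyf1 and from 51.2 to 68.1 in WT. KMD1, KMD2 and KFB-CHS were higher in the comparison of both double mutants with gyf1. In it 2 of 4 root markers, EXPA7 (-0.54) and PIP2;4 (-0.37), were called lower, where 11.2% of all tested genes were. Of the leaf markers 3 of 4, RBCS1A, CAB1 and LHCB2.1 (0.22 to 0.34), were called higher, where 14.3% were. With gyf2 in place of gyf1, PIP2;4 (-0.24) was called lower and RBCS1A (0.30) higher, 1 of 4 each. Of all tested genes 8.86% were called lower and 12.2% higher there. The shoot meristem marker STM was called higher in gyf1 gyf2-1 (0.57, SE 0.19, edgeR adjusted p = 0.0261, not called without WT replicate 3 or replicate 2 or 3 of that line) and stood at 0.40 (SE 0.19, edgeR adjusted p = 0.116) in gyf1 gyf2-2, where it was called without WT replicate 1. Both double mutants stood 0.56 above gyf1 (called) and 0.32 above gyf2 (not called) in STM. Summed with CLV3, left out by the filter, it ran from 4.90 to 7.16 CPM in gyf1 gyf2-2, from 5.71 to 7.37 in gyf1 gyf2-1, from 4.57 to 5.50 in gyf2, from 4.04 to 4.85 in gyf1 and from 3.13 to 5.73 in WT. Seed storage genes were at most 0.480 CPM in sum in any library. The part of tissue makeup in the levels of KMD1, KMD2 and KFB-CHS was not tested, and in whole seedlings fewer cells of a type and less RNA per cell cannot be told apart.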

How the data were processed

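RNA from whole seedlings was sequenced in 15 libraries of 5 genotypes. The authors deposited counts per gene (whole numbers, not normalized) and FPKM values per gene. Per the submitters' processing notes, the tools were HISAT2 2.0.4 and HTSeq 0.6.1p1, with the TAIR10 build. The deposited FPKM values were used only for levels per length. Every count column belonged to a sample of the series, and 0 other columns were found.

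Counts were analysed in R 4.3.3 with edgeR 4.0.16. filterByExpr (count minimum 10) left out 12112 genes, and 20721 were tested. After TMM scaling, 1 robust quasi-likelihood model held all libraries, with genotype as its only factor (common biological variation 7.94%). Each gene was called at an adjusted p below 0.05 (Benjamini-Hochberg over all tested genes of a comparison), and the SE of a log2 fold change was derived from it and the F value. The scripts were tested on simulated data. Correlations used log2 CPM with a prior count of 2. Gene overlap and upstream windows came from the RefSeq TAIR10.1 annotation, in which 99.95% of the 32548 shared genes had the same start and end.

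The members, gene lists and tests were chosen with earlier results of these data known. Named genes are all members, the known protein targets, up to 4 list genes called in both double mutants in 1 direction by lowest adjusted p, the 3 largest rises and falls of other kelch genes, and the genes most correlated with each member. Alternatives were DESeq2 1.42.0, its size factors, no filter, only the groups compared, a replicate block, and each library left out. The settings for the list genes, markers and for the sum of single changes were added after seeing the data.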

Additional observations from a re-analysis of the deposited data

Results flagged for a closer look

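Both of these values stood out because the effect of gyf2 and the effect of gyf1 on the same gene differed by a test of the difference itself. KMD1 was higher in gyf2 than in gyf1 by 0.69 on the log2 scale (SE 0.08, edgeR adjusted p = 5.21e-06), with an adjusted p of at most 0.000207 over the 11 other settings. KFB-CHS was higher by 0.60 (SE 0.09, edgeR adjusted p = 0.000277), with an adjusted p of at most 0.00436 over them. All 3 gyf2 libraries were above all 3 gyf1 libraries for both genes.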

How the results depend on the processing

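Called members numbered 3 in gyf2 against WT, 2 in gyf2 against gyf1 and 0 between the double mutant lines under each of the 11 other settings. In gyf1 against WT the count ran from 1 to 3 (2 with all libraries), and leaving out 1 library gave 1 to 2. Calls of members that set a double mutant beside WT or a single mutant are not used here. KMD1 kept its call and direction in gyf2 and gyf1 under each of the 11 settings, with log2 fold changes of 1.5999 to 1.69 and 0.90 to 1.04. KMD2 in gyf2 ran from 0.53 to 0.63 and KFB-CHS in gyf2 from 1.01 to 1.17, both still called. KMD4 moved from 0.95 to 2.0996 in gyf1 gyf2-2 and from 0.73 to 1.89 in gyf1 gyf2-1 and has few counts. The difference of KFB-CHS between the double mutants and the summed single changes ran from -0.072 to 0.094 when single libraries were left out, being -0.015 without WT replicate 1 and -0.072 without gyf2 replicate 3. Over all genes, calls in gyf2 against gyf1 were 132 without gyf1 replicate 2 and 127 without gyf2 replicate 1 (199 with all), those of the double mutants against gyf2 were 2823 without gyf2 replicate 2 (4360 with all), and those between the double mutant lines were 21 to 30 without gyf1 gyf2-1 replicate 2, its replicate 3 or gyf1 gyf2-2 replicate 2 (48 with all). The cause was not tested.

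Replicate numbers are shared between genotypes. After removal of genotype means, same-numbered libraries correlated at -0.07 to 0.19 (30 pairs, median 0.03). Libraries with different numbers correlated at -0.19 to 0.11 (60 pairs, median -0.02). Of 15 libraries, 9 correlated best with their own number. The numbers may therefore pair some of the libraries weakly, and the main model holds no replicate factor. With a replicate block, called members were 2 in gyf1, 3 in gyf2, 2 in gyf2 against gyf1, and 0 between the lines, as without it. In gyf1 gyf2-1 the block gave 2 lower receptor and phosphotransfer genes, 4 higher phenylpropanoid genes and 2 higher SCF genes, and it added ARR5 (adjusted p = 0.0323) and 1 lower root marker in gyf1 gyf2-2, ARR7 in gyf1 (adjusted p = 0.0402) and ARR6 in gyf2 (adjusted p = 0.0491). Calls over all genes in gyf1 were 192 with the block and 108 without.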
